A study of Rattus norvegicus with 8 samples.

Results

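The 10 genes of the FoxO and energy-stress response followed in the rat Achilles tendon 12 hours after a single run are *Foxo1*, *Foxo3*, *Cdkn1a*, *Ddit4*, *Sesn1*, *Gadd45a*, *Pik3ip1*, *Irs2*, *Txnip*, and *Cited2*. They were picked by symbol for their known roles, with earlier results of these data known. They make up 10 of the 32883 genes in the count table. All 10 had enough reads to be tested, as had 13937 genes in total. The right Achilles tendons came from wild-type male Sprague-Dawley rats, 8 to 10 weeks old by the study's methods. In the running group, 4 rats ran for 1 hour on an inclined treadmill and were killed 12 hours post-running (12 h p.r., n = 4 rats), and the naïve controls rested in their cages and were killed at the same time (NC, n = 4 rats). Each library is 1 rat, the mRNA is that of the whole tendon, and fewer cells of a type cannot be told apart from less RNA per cell.

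FoxO factors are transcription factors that insulin and growth factors keep out of the nucleus through AKT, and that enter it when this signal is low or when the cell is stressed. There they turn on genes for growth arrest, autophagy, and stress resistance, and several of their products feed back on the same signal. Other genes of this response brake mTORC1, the kinase complex that couples nutrients and growth factors to protein synthesis, and many of them can also be switched on by DNA damage, by low oxygen, or by glucocorticoids. In skeletal muscle and liver these genes are known to follow fasting and exercise, and the comparison asks whether their mRNA differs in the tendon 12 hours after a run.

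Promoter sequences of RefSeq (GRCr8, 250 bases before to 50 after the start) were at hand for 7 of the 10 genes, and *Foxo3*, *Irs2*, and *Txnip* had no entry. The FoxO core motif TGTTTAC, searched on both strands, was present in 1 of the 7 promoters, that of *Pik3ip1*, and in 3.78% of all 33469 promoter entries of the same length. It began at the first transcribed base of *Pik3ip1*, shown here with the motif in capitals in a stretch of 30 bases around the start (chr14:82428304-82428333, plus strand).
*Pik3ip1*: taaagagaggcTGTTTACcagaagagcata
The promoters of *Ddit4* and *Gadd45a* are shown because these genes had the widest spread between rats of a group and the largest difference between the groups. The core of the hypoxia response element, ACGTG on either strand, was found in the promoters of *Ddit4* and *Cited2* and in 19.3% of all entries. The CCAAT box, read as CCAAT or ATTGG, was found in those of *Foxo1*, *Gadd45a*, *Ddit4*, and *Sesn1* and in 37.5% of all entries. Capitals mark ACGTG in the 250 bases before the start of *Ddit4* (chr20:28437038-28437287, minus strand) and CCAAT in those of *Gadd45a* (chr4:97486800-97487049, minus strand).
*Ddit4*: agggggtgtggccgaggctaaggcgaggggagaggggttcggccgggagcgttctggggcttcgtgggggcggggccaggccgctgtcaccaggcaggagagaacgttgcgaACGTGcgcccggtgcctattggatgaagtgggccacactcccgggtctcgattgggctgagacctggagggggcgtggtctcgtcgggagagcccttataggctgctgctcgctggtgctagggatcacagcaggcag
*Gadd45a*: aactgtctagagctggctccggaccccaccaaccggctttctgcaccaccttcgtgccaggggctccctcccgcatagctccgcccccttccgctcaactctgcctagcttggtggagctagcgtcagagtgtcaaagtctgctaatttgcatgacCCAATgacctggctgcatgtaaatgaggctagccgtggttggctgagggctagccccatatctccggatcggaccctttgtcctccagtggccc

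Between 7350509 and 12951397 reads per rat were counted on genes. The least read of the 10 genes in any rat was *Foxo3*, with 92 reads, and *Txnip* reached 15805. Tendon markers such as *Tnmd*, *Scx*, and *Col1a1* were read in every rat, and the summed level of the 9 tenocyte markers ran from 20103.7 to 56113.5 CPM (counts per 1000000 reads after TMM scaling, which sets 1 factor per library) at 12 h p.r. and from 34278.1 to 51471.9 CPM in the NC group. The library of 12 h p.r. replicate 3 had the lowest tenocyte sum and by far the highest sum of 9 skeletal muscle markers, 57148.7 CPM. The other 12 h p.r. rats had muscle sums of 2001.2 to 3014.8 CPM, and the NC rats of 1650.0 to 10334.4 CPM. NC replicate 3 had the highest sum of 8 cartilage and bone markers, 1239.5 CPM, where the remaining NC rats had 44.4 to 74.0 CPM and the runners 13.8 to 476.5 CPM. None of the tenocyte or muscle markers was at 0 in any rat, and *Matn3* and *Sp7* among the cartilage and bone markers were at 0 in at least 1. Values without 12 h p.r. replicate 3 are given for the 10 genes and for the lists around them. They are also given for some single genes, but not for all of those that it moved most.

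The levels of the 10 genes covered a wide range. Per length, as FPKM averaged over the 8 rats, *Txnip* stood at 387.6 and above 98.4% of the genes tested. *Ddit4* followed with 60.2 and *Cited2* with 29.9 FPKM. *Gadd45a* (21.1), *Pik3ip1* (18.6), *Cdkn1a* (13.3), and *Foxo1* (11.8) had intermediate mean FPKM values. *Sesn1* (8.94), *Foxo3* (5.45), and *Irs2* (3.29) had the lowest mean FPKM, that of *Irs2* above only 25.1% of the genes tested. Only *Txnip* was separated from its neighbor in this order over all rats, with a lowest FPKM of 308.7 against the highest of *Ddit4*, 104.8. *Gadd45a* exceeded *Pik3ip1* in 5 of the 8 rats, *Pik3ip1* exceeded *Cdkn1a* in 7, and *Cdkn1a* exceeded *Foxo1* in 6, so these neighbors did not differ beyond their spread. Each of the other neighbors kept its place in all 8 rats although the ranges overlapped.

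None of the 10 genes passed the test for a difference in mRNA level between the 12 h p.r. and the NC rats. With the quasi-likelihood test of edgeR and p-values adjusted over the whole table (Benjamini-Hochberg), 0 of the 10 had an adjusted p under 0.05, where the background was 1 gene or 0.00718% of the 13937 tested. At an unadjusted p under 0.05, 0 of the 10 stood against 9.51% of all genes. DESeq2, the other tool run, also gave 0 of the 10, both at an adjusted p under 0.05 (background, 0.694%) and at an unadjusted p under 0.05 (background, 9.31%). In mean, 7 of the 10 lay above the NC group and 3 below it, with a median log2 difference of 0.06, beside 0.02 for all genes tested. The median size of the log2 difference, regardless of sign, was 0.19 for the 10 genes and 0.15 for all. In none of the 10 were the 4 rats of each group apart from one another, as was the case for 6.06% of all genes. The 95% interval of every one of the 10 log2 differences lay within a 2-fold change in both directions, from 0.53-fold at the lowest (*Ddit4*) to 1.83-fold at the highest (*Gadd45a*). On the log2 scale it was narrowest for *Cited2*, at 0.95-fold to 1.32-fold.

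**Figure D1:**
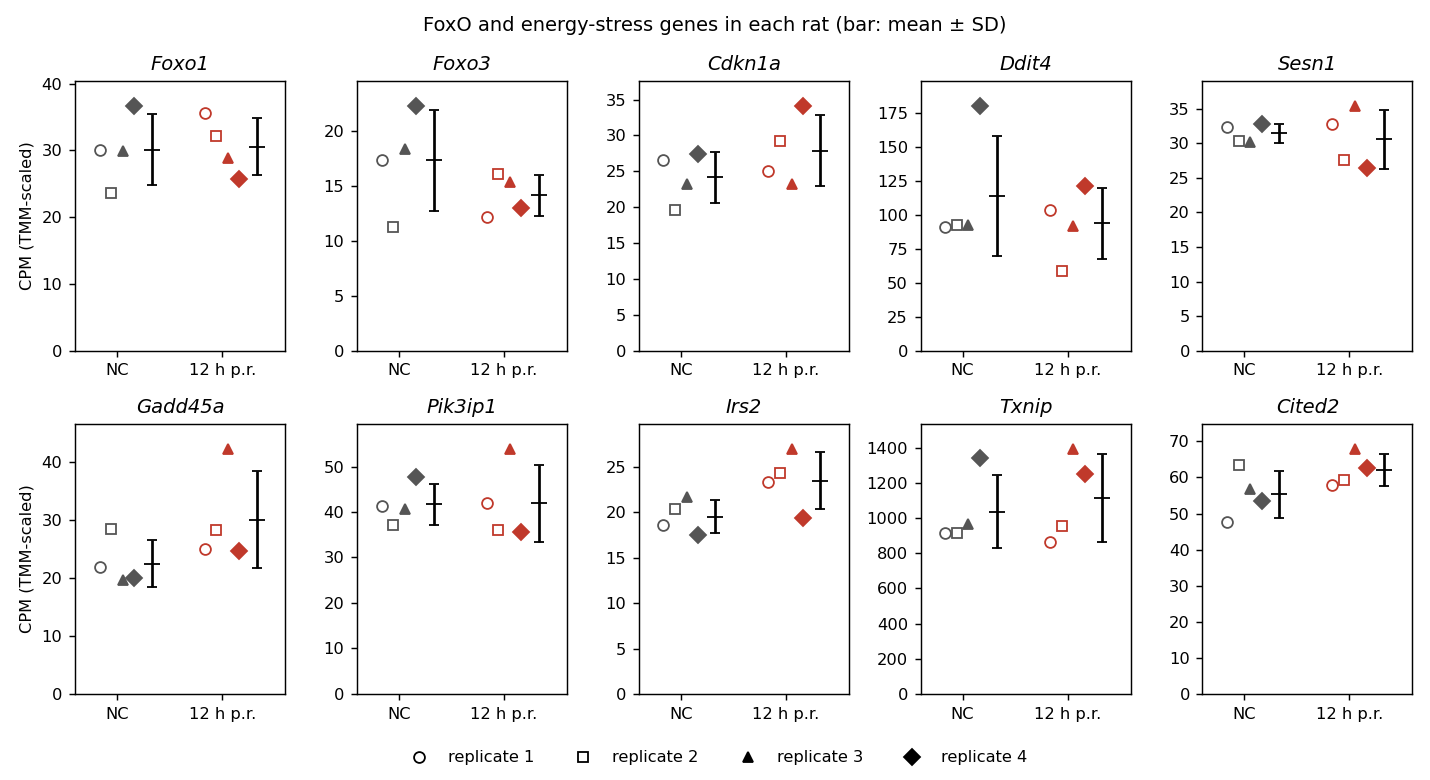
Expression of the 10 genes in each rat in CPM (vertical axes starting at 0), with NC rats in gray and 12 h p.r. rats in red, symbols for the replicate numbers, and bars for the mean ± SD of 4 rats. The groups overlap in every panel, NC replicate 4 lies far above the other NC rats in *Ddit4* and *Txnip*, and 12 h p.r. replicate 3 is the highest rat in *Gadd45a*, *Pik3ip1*, *Irs2*, *Txnip*, *Cited2*, and *Sesn1*.

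*Foxo1* and *Foxo3* encode the FoxO factors themselves. *Foxo1* was at 35.6, 32.1, 28.8, and 25.7 CPM in the 12 h p.r. rats and at 30.0, 23.7, 29.9, and 36.7 CPM in the NC rats, in the order of their replicate numbers. The lowest and the highest rat were both NC rats, and the runners lay between them. The means of 30.6 ± 4.26 and 30.1 ± 5.32 CPM (SD, n = 4) differed by 0.02 on the log2 scale (SE 0.15, edgeR adjusted p = 0.980). *Foxo3* was at 12.2, 16.1, 15.4, and 13.1 CPM at 12 h p.r. and at 17.4, 11.3, 18.4, and 22.4 CPM in the NC group. All 4 runners lay below the NC mean, but NC replicate 2 was lower than any of them. The log2 difference of *Foxo3* was −0.30 (SE 0.20, adjusted p = 0.674), the most negative of the 10, and it ran from −0.45 without NC replicate 2, where its unadjusted p was 0.0164 and its adjusted p 0.483, to −0.15 without NC replicate 4.

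*Cdkn1a* and *Gadd45a* encode proteins of growth arrest, the cyclin-dependent kinase inhibitor p21 and a small stress protein that is induced by DNA damage. *Cdkn1a* was measured at 25.0, 29.3, 23.2, and 34.2 CPM in the runners and at 26.5, 19.6, 23.2, and 27.4 CPM in the controls. Runners 2 and 4 exceeded every NC rat and the others fell within their range, with a log2 difference of 0.20 (SE 0.15, adjusted p = 0.708) that ran from 0.09 without 12 h p.r. replicate 4 to 0.28 without 12 h p.r. replicate 3. *Gadd45a* was at 25.0, 28.3, 42.4, and 24.8 CPM at 12 h p.r. and at 21.9, 28.6, 19.6, and 20.1 CPM in the NC rats. All 4 runners lay above the NC mean of 22.5 ± 4.14 CPM, and 12 h p.r. replicate 3 was the only one above NC replicate 2. Its log2 difference of 0.42 (SE 0.20, 95% interval −0.03 to 0.87) was the largest of the 10, with an unadjusted p of 0.0640 and an adjusted p of 0.548 by edgeR. The 2-sided exact permutation test gave p = 0.143, and 0.0286 is the smallest p that 4 against 4 rats can give. Without 12 h p.r. replicate 3, the rat with the high muscle markers, the log2 difference of *Gadd45a* was 0.21, and without NC replicate 2 it was 0.55 (unadjusted p = 0.0249, adjusted p = 0.50). The part of muscle RNA in it was not tested beyond the fit with a muscle marker covariate, which gave 0.37 with an unadjusted p of 0.0401 and an adjusted p of 0.448.

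*Ddit4* and *Sesn1* act as brakes on mTORC1. *Ddit4* encodes REDD1, which activates the TSC complex and is induced by low oxygen and by glucocorticoids, and *Sesn1* encodes a sestrin that links amino acid supply to mTORC1. *Ddit4* was at 103.4, 59.0, 91.8, and 121.0 CPM at 12 h p.r. and at 91.3, 92.7, 92.4, and 180.6 CPM in the NC group. NC replicates 1 to 3 were nearly level and NC replicate 4 stood far above them, while the runners were spread on both sides of that level. The variation within groups of *Ddit4* on the log2 scale (SD 0.46) exceeded that of 81.2% of the genes tested, the widest of the 10. Its log2 difference of −0.28 (SE 0.28, adjusted p = 0.776) rested on NC replicate 4, without which it was 0.03. *Sesn1* was among the steadiest, with 32.7, 27.5, 35.5, and 26.5 CPM in the runners and 32.4, 30.3, 30.2, and 32.8 CPM in the controls. The NC rats lay within 1.09-fold of one another, and the runners fell both above and below them. Its log2 difference of −0.04 (SE 0.11, adjusted p = 0.927) had a 95% interval of −0.29 to 0.21.

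*Pik3ip1* and *Irs2* act near the insulin receptor, the first as a membrane protein that inhibits phosphatidylinositol 3-kinase and the second as an adaptor that recruits this kinase. *Pik3ip1*, the gene with the FoxO core motif at its start, was at 42.1, 36.0, 53.9, and 35.7 CPM at 12 h p.r. and at 41.3, 37.0, 40.7, and 47.8 CPM in the NC rats. The runners included both the highest and the lowest rat. Its means of 41.9 ± 8.53 and 41.7 ± 4.46 CPM gave a log2 difference of 0.01 (SE 0.15, adjusted p = 0.995), the smallest of the 10, whose sign turned under DESeq2 and RLE factors and which was −0.14 without 12 h p.r. replicate 3. *Irs2* was at 23.3, 24.4, 27.0, and 19.3 CPM in the runners and at 18.6, 20.4, 21.7, and 17.5 CPM in the controls. Of the runners, 3 exceeded all NC rats, more than for any other of the 10 genes, and replicate 4 lay within the NC range. The log2 difference of *Irs2* was 0.27 (SE 0.13, 95% interval −0.02 to 0.55), with an unadjusted p of 0.0663 and an adjusted p of 0.553 by edgeR and an exact permutation p of 0.0857. It was 0.19 without 12 h p.r. replicate 3, and 0.35 with an unadjusted p of 0.0197 (adjusted p = 0.615) without 12 h p.r. replicate 4.

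*Txnip* encodes an arrestin-fold protein that binds thioredoxin and limits glucose uptake, and *Cited2* a cofactor that competes with the hypoxia-inducible factor HIF-1α for its coactivators. *Txnip* was at 862, 952, 1393, and 1249 CPM at 12 h p.r. and at 916, 913, 963, and 1343 CPM in the NC group. Replicates 3 and 4 of the runners and replicate 4 of the controls stood well above the other 5 rats, which were nearly level. The log2 difference of *Txnip* was 0.11 (SE 0.20, adjusted p = 0.895), −0.02 without 12 h p.r. replicate 3, and 0.26 without NC replicate 4. *Cited2* was at 58.0, 59.3, 68.0, and 62.7 CPM in the runners and at 47.5, 63.4, 56.7, and 53.5 CPM in the controls. Every runner lay above the NC mean of 55.3 ± 6.61 CPM, and NC replicate 2 lay above 3 of the 4 runners. With the smallest spread within groups of the 10 (SD 0.14 on the log2 scale), *Cited2* had a log2 difference of 0.17 (SE 0.10, adjusted p = 0.648), which was 0.24 without NC replicate 2 (unadjusted p = 0.0453, adjusted p = 0.544) and 0.10 without NC replicate 1.

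**Figure D2:**
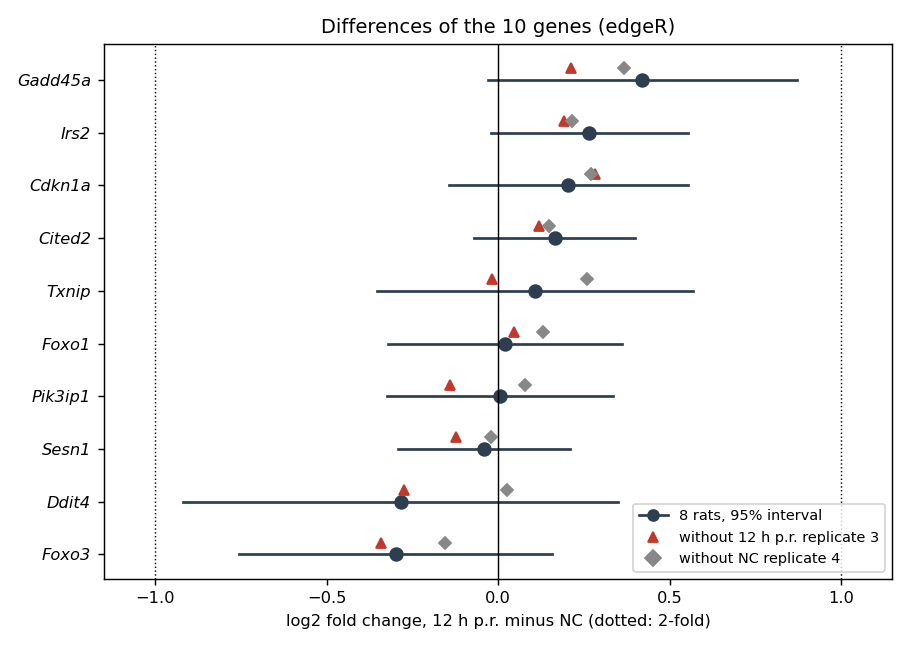
Log2 fold changes of the 10 genes, 12 h p.r. minus NC (horizontal axis), with 95% intervals of edgeR's fit over 8 rats (circles and lines) and the values without 12 h p.r. replicate 3 (triangles) and without NC replicate 4 (diamonds). All intervals include 0 and stay within the dotted lines of a 2-fold change, *Gadd45a* (0.42) and *Foxo3* (−0.30) are at the ends, and the value of *Ddit4* moves to 0.03 without NC replicate 4.

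The spread between rats of a group (SD of log2 CPM) was larger than the log2 difference between the groups for 7 of the 10 genes, the exceptions being *Gadd45a*, *Irs2*, and *Cited2*. 12 h p.r. replicate 3 was the highest of the 8 rats in 6 of the 10 genes, and in 21.7% of all genes tested. NC replicate 4 was the highest of the 8 in *Foxo1*, *Foxo3*, and *Ddit4* (11.8% of all genes), and the highest of the NC rats in 7 of the 10 genes (23.0% of all genes). Without 12 h p.r. replicate 3, 5 of the 10 genes were higher and 5 lower, with a median log2 difference of 0.01. Without NC replicate 4, 8 were higher and 2 lower, with a median of 0.14. Neither of these fits gave any of the 10 an unadjusted p under 0.05. The share over all genes was 11.2% without 12 h p.r. replicate 3 and 6.29% without NC replicate 4. NC replicate 4 also had the lowest summed level of the muscle markers, 1650.0 CPM, and the highest mean level of 7 glucocorticoid-responsive genes, 7.16 on the scale of log2(CPM + 0.5), where the remaining controls had 6.29 to 6.66. With a muscle marker score as a covariate, 6 were higher and 4 lower with a median of 0.07. *Gadd45a* alone then had an unadjusted p under 0.05, beside 10.5% of all genes. The part of the glucocorticoid-responsive and muscle levels of NC replicate 4 in its high *Ddit4* and *Txnip* was not tested.

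**Figure D3:**
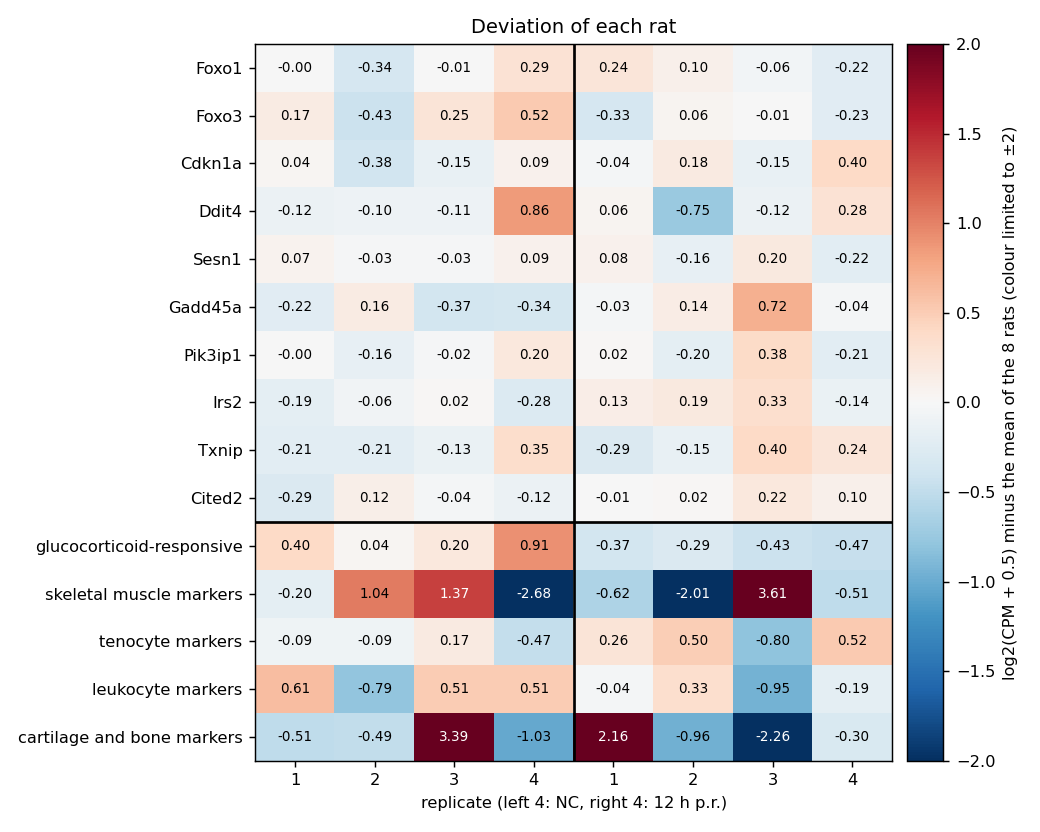
Deviation of each rat (columns) from the mean of the 8 rats in log2(CPM + 0.5) for the 10 genes and for the mean of 5 gene lists (rows), with the value in each cell and the color limited to ±2. NC replicate 4 is at 0.86 in *Ddit4* and 0.91 in the glucocorticoid-responsive genes, 12 h p.r. replicate 3 is at 0.72 in *Gadd45a* and 3.61 in the muscle markers, and the glucocorticoid-responsive genes are the only row in which the 2 groups do not overlap.

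Around the 10 genes, 8 lists of related genes were examined, also chosen with earlier results of these data known. They held 97 symbols, of which 90 were matched and 85 tested. None of the 85 passed the adjusted test by edgeR, and 15 had an unadjusted p under 0.05. Of these, 10 lay above the NC group and 5 below it, against 5.44% and 4.08% of all genes in the respective direction. Without NC replicate 4 there were 9, and the share over all genes was 6.29%, against 9.51% over the 8 rats. DESeq2 gave an adjusted p under 0.05 to 3 of the 85, all in the glucocorticoid-responsive list.

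Among 19 other FoxO factors and known FoxO targets, 15 had a higher and 4 a lower mean in the runners, with a median log2 difference of 0.23. Of these 19, 4 had an unadjusted p under 0.05, all of them higher, against 5.44% of all genes in that direction. *Map1lc3b*, which encodes the autophagosome protein LC3B, was at 120.9, 137.4, 138.5, and 139.7 CPM in the runners and at 108.5, 107.8, 110.6, and 108.8 CPM in the controls. All runners exceeded all controls, and the NC rats were nearly level, for a log2 difference of 0.30 (SE 0.08, edgeR adjusted p = 0.432) that kept an unadjusted p under 0.05 whichever rat was left out. *Tnfsf10*, the gene of the death ligand TRAIL, was at 219.6, 101.8, 129.6, and 129.3 CPM at 12 h p.r. and at 87.1, 97.3, 100.1, and 97.4 CPM in the NC group, again without overlap. Its log2 difference was 0.60 (SE 0.21, adjusted p = 0.452), and 0.33 at the lowest when a rat was left out. The other pair were the FoxO genes *Foxo4* (0.57, SE 0.25) and *Foxo6* (1.02, SE 0.37), both highest in 12 h p.r. replicate 3. Without that rat, the log2 difference was 0.23 for *Foxo4* (unadjusted p = 0.0629) and 0.74 for *Foxo6* (unadjusted p = 0.0750). Without NC replicate 4, their unadjusted p was 0.0899 and 0.0588. The most abundant gene of the list, *Bnip3* of mitophagy, had a log2 difference of −0.24 (SE 0.21), and the transcriptional repressor *Bcl6* one of −0.27 (SE 0.21), neither with an unadjusted p under 0.05 over the 8 rats. *Bnip3* was at −0.43 without 12 h p.r. replicate 3 (unadjusted p = 0.0345) and at −0.07 without NC replicate 2, and *Bcl6* at −0.11 without NC replicate 4.

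In the same list *Trim63* and *Fbxo32*, ubiquitin ligases of muscle wasting, and *Pdk4*, a kinase that spares glucose, were at 66.2, 33.3, and 44.4 CPM in 12 h p.r. replicate 3 and at no more than 6.32, 16.2, and 18.8 CPM in the other runners. These 3 genes were singled out after their values were seen, because they are known for their expression in muscle. In the controls *Trim63* was at 6.01, 21.6, 24.3, and 9.01 CPM. NC replicates 2 and 3, its highest controls, also had the highest muscle sums of the NC rats. *Fbxo32* was at 11.1 to 18.1 CPM and *Pdk4* at 11.2 to 29.9 CPM in the controls, *Pdk4* highest in NC replicate 4. With the muscle marker covariate, the log2 difference was −0.48 for *Trim63*, −0.05 for *Pdk4*, and 0.35 for *Fbxo32*. The part of muscle RNA in these values was not tested beyond that fit. Leaving out 12 h p.r. replicate 3 took the log2 difference of *Trim63* from 0.44 to −1.503 (unadjusted p = 0.0140), that of *Pdk4* from 0.23 to −0.51, and that of *Fbxo32* from 0.48 to 0.10. The median of the list was then 0.10, with 13 genes higher and 6 lower, and 2 in each direction at an unadjusted p under 0.05. Of all genes, 11.2% had such a p in that fit, both directions together.

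The insulin and PI3K-AKT list, which holds the receptors, kinases, and phosphatases upstream of FoxO, had 9 genes higher and 7 lower of 16 tested, with a median log2 difference of 0.10. These became 8 higher and 8 lower with a median of 0.02 without 12 h p.r. replicate 3. At an unadjusted p under 0.05, 4 were higher and 1 lower, against 5.44% and 4.08% of all genes in the respective direction. *Pik3ca*, the catalytic subunit p110α of the kinase that *Pik3ip1* inhibits, was the lower one, at 66.1, 63.0, 65.9, and 65.1 CPM in the runners and at 75.8, 96.3, 73.1, and 77.1 CPM in the controls. The groups did not overlap, the runners were almost level, and the log2 difference was −0.31 (SE 0.10, adjusted p = 0.433), with an unadjusted p under 0.05 whichever rat was left out. *Akt1*, the most abundant of the list and the kinase that phosphorylates FoxO factors, was higher by 0.27 (SE 0.10, adjusted p = 0.478), and the regulatory subunit *Pik3r2* by 0.24 (SE 0.10, adjusted p = 0.497). *Pdpk1*, which activates AKT, and *Akt2* were higher by 0.42 (SE 0.17) and 0.41 (SE 0.18). Without 12 h p.r. replicate 3, and likewise without NC replicate 4, none of the 4 higher genes kept an unadjusted p under 0.05. Their log2 differences were then 0.22 and 0.24 for *Akt1*, 0.24 and 0.22 for *Pik3r2*, 0.32 and 0.39 for *Pdpk1*, and 0.28 and 0.28 for *Akt2*. The adaptor *Grb10*, which dampens insulin signaling, had a log2 difference of −0.21 (SE 0.10).

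The mTORC1 and AMPK list holds kinases that sense energy and nutrients, and their regulators. In it 12 were higher and 4 lower of 16 tested, with a median log2 difference of 0.09. Without 12 h p.r. replicate 3, 8 were higher and 8 lower, with a median of 0.0041. Only *Prkab1*, the β1 subunit of AMPK, the kinase that senses low energy, had an unadjusted p under 0.05, against 9.51% of all genes. It was at 39.1, 39.7, 43.4, and 41.8 CPM in the runners and at 32.5, 37.7, 34.2, and 38.4 CPM in the controls, a log2 difference of 0.20 (SE 0.09, adjusted p = 0.507). It was 0.17 with an unadjusted p of 0.101 without 12 h p.r. replicate 3. The mTORC1 inhibitor *Akt1s1* had a log2 difference of 0.20 (SE 0.11), the mTORC1 activator *Rheb*, the most abundant of the list, one of 0.10 (SE 0.11), the scaffold *Rptor* one of −0.12 (SE 0.09), and the catalytic AMPK subunit *Prkaa1* one of −0.10 (SE 0.09). *Prkaa2*, the other catalytic subunit, was chosen after its values were seen. It was at 30.4 CPM in 12 h p.r. replicate 3 and at 3.62 CPM or less in the other runners, and its log2 difference was 1.117 with and −0.57 without that rat.

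The 10 growth arrest genes tested beside *Cdkn1a* and *Gadd45a* held none with an unadjusted p under 0.05 over all rats, against 9.51% of all genes. Of them, 6 were higher and 4 lower, with a median log2 difference of 0.10, or 0.01 without 12 h p.r. replicate 3. The ubiquitin ligase *Mdm2* came nearest, with a log2 difference of −0.25 (SE 0.11, unadjusted p = 0.0550). The death effector *Bax* had a log2 difference of 0.15 (SE 0.12), the sestrin *Sesn2* one of 0.16 (SE 0.13), the RNA-binding *Zmat3* one of −0.30 (SE 0.21), and *Phlda3*, an AKT inhibitor and the most abundant of the list, one of 0.23 (SE 0.23), which was 0.08 without 12 h p.r. replicate 3. *Ccng1* was named after its values were seen. It was at 841.6 CPM in 12 h p.r. replicate 3 and at 182.5 CPM or less in the other runners. The controls were at 169.7 to 308.9 CPM. The log2 difference of *Ccng1* was 0.49 with and −0.49 without that rat (unadjusted p = 0.027 without it). In the fit without that rat, *Ccng1* alone of the list had an unadjusted p under 0.05. The 5 genes of the integrated stress response held none with an unadjusted p under 0.05 in either fit. The median of this list was −0.02, or −0.01 without 12 h p.r. replicate 3. *Atf4*, its transcription factor and most abundant member, had a log2 difference of −0.02 (SE 0.12), and *Chac1*, which degrades glutathione, one of 1.31 (SE 0.65), with 6.78 CPM in 12 h p.r. replicate 3 and 2.44 CPM or less in every other rat. The log2 difference of *Chac1* without 12 h p.r. replicate 3 was 0.46. *Trib3* (0.16, SE 0.24), *Ddit3* (−0.18, SE 0.13), and *Asns* (−0.12, SE 0.26) completed the list.

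Around *Txnip*, 7 thioredoxin and arrestin-fold genes were higher and 2 lower, with a median log2 difference of 0.03, or 0.02 without 12 h p.r. replicate 3. *Arrdc3*, an arrestin-fold relative of *Txnip*, was the only one with an unadjusted p under 0.05, at 42.1, 39.1, 41.2, and 44.7 CPM in the runners and at 29.9, 28.6, 34.7, and 42.7 CPM in the controls. NC replicate 4 lay among the runners, and the log2 difference was 0.30 (SE 0.13, adjusted p = 0.522) with it and 0.43 without it. Without NC replicate 2 the log2 difference of *Arrdc3* was 0.22. Of the fits that left out a rat, only that without NC replicate 4 gave *Arrdc3* an unadjusted p under 0.05. Thioredoxin itself, *Txn1*, the most abundant of the list, had a log2 difference of 0.02 (SE 0.11), the mitochondrial thioredoxin *Txn2* one of 0.17 (SE 0.15) that was 0.02 without 12 h p.r. replicate 3, *Arrdc1* one of −0.09 (SE 0.13), and *Mlx*, a partner of the glucose-sensing factors that induce *Txnip*, one of −0.01 (SE 0.09). Of the partners of *Cited2*, only 3 were tested. *Hif1a* had a log2 difference of 0.17 (SE 0.17), *Cited1* one of 0.28 (SE 0.47), and the coactivator *Crebbp* one of −0.21 (SE 0.12). Without 12 h p.r. replicate 3, *Hif1a* was at 0.29, *Cited1* at −0.27, and *Crebbp* at −0.17.

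**Figure D4:**
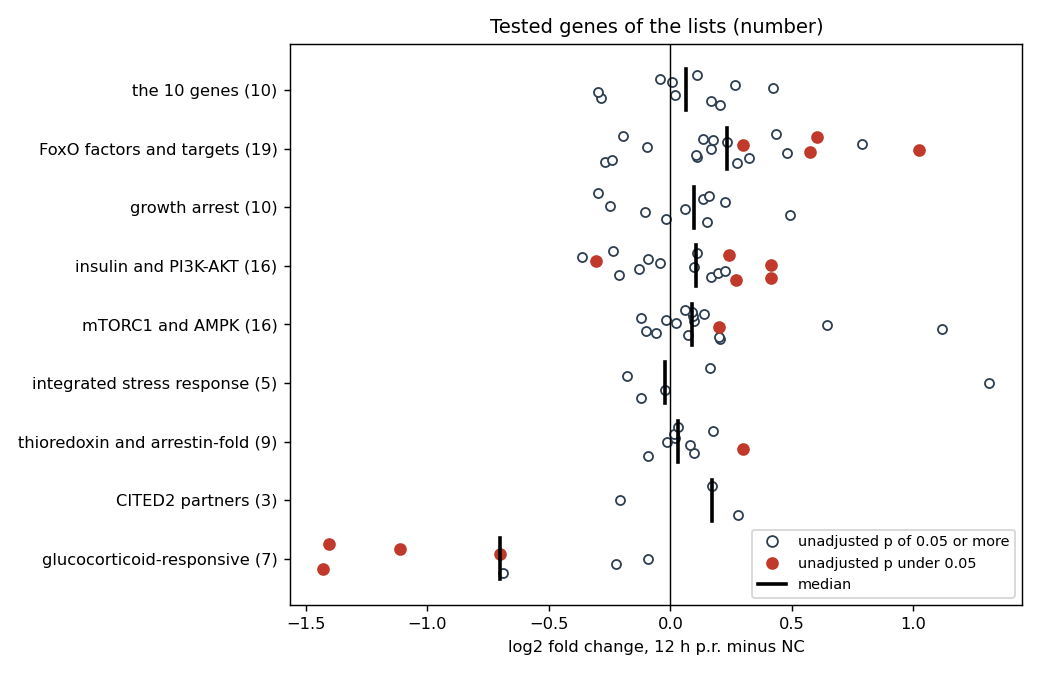
Log2 fold changes, 12 h p.r. minus NC (horizontal axis), of the tested genes of each list, with the number of genes in brackets, filled points for an unadjusted p under 0.05, and black bars for the medians. The 10 genes center near 0 (median 0.06) with no filled point, and the glucocorticoid-responsive genes lie below 0 (median −0.70).

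Glucocorticoids, the adrenal hormones that can induce *Ddit4*, have a set of well-known target genes, and all 7 that were tested were lower at 12 h p.r., with a median log2 difference of −0.70. Without NC replicate 4, the rat highest in 5 of them, 6 of the 7 were lower and the median was −0.61, and without 12 h p.r. replicate 3 all 7 were lower with a median of −0.79. An unadjusted p under 0.05 was given to 4, all lower, against 4.08% of all genes in that direction. *Zbtb16*, a transcription factor, was at 9.58, 9.75, 7.14, and 7.60 CPM in the runners and at 22.0, 16.8, 19.3, and 32.0 CPM in the controls. All runners lay below all controls, and the log2 difference was −1.41 (SE 0.22, edgeR adjusted p = 0.221). *Tsc22d3*, which encodes the leucine zipper protein GILZ and was the most abundant of the list, was at 309.4, 230.4, 224.0, and 247.3 CPM in the runners and at 505.1, 429.7, 397.5, and 857.6 CPM in the controls. The groups did not overlap here either, with a log2 difference of −1.115 (SE 0.25, adjusted p = 0.385). The other pair were *Fkbp5*, the gene of a co-chaperone of the glucocorticoid receptor (−1.43, SE 0.33), and the clock gene *Per1* (−0.70, SE 0.20). The groups overlapped in both *Fkbp5* and *Per1*. These 4 genes kept an unadjusted p under 0.05 whichever rat was left out. DESeq2 gave an adjusted p of 1.51e-05 for *Zbtb16*, 0.00374 for *Tsc22d3*, and 0.00505 for *Fkbp5*. The rest of the list, named after the values were seen, had smaller log2 differences. They were −0.69 (SE 0.31) for *Errfi1*, −0.23 (SE 0.12) for *Klf9*, and −0.09 (SE 0.34) for *Mt2A*. *Ddit4* was also highest in NC replicate 4, and 3 of its 4 NC rats were within the range of the runners. Its relation to the glucocorticoid-responsive genes was not tested.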

How the data were processed

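Stranded polyadenylate mRNA libraries were sequenced from the right Achilles tendons of 4 rats at 12 h p.r. and 4 NC rats, grouped by the sample labels. The authors aligned reads to Rnor_6.0 with HISAT2 2.1.0, counted them with featureCounts 1.6.3, and deposited whole read counts per gene without normalization. The paper does not state the strand setting of the counting or the handling of reads that match several genes. In the deposited FPKM, a count is divided by the gene's length and by a factor of its library, and the ratios of these factors matched the size factors of DESeq2. The authors' table of fold changes, p-values, and adjusted p-values was not used.

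Counts were filtered with filterByExpr, TMM-scaled, and compared with edgeR 4.0.16 (glmQLFit and glmQLFTest, R 4.3.3), and p-values of the 13937 genes tested were adjusted after Benjamini and Hochberg. The SE is the log2 fold change over the root of F. Exact permutation tests (2-sided, all 70 splits) used log2(CPM + 0.5), and Python 3.11.15 made the tables. FPKM was used for levels between genes. Depth was 7350509 to 12951397 counts, and the scripts were tested on simulated data. Alternatives were DESeq2 1.42.0, RLE factors, other filters, limma 3.58.1 on FPKM, a replicate block, a muscle covariate, and leaving out rats. The 10 genes and the lists were chosen with earlier results of these data known. Named are the 10 genes, and of each list the most abundant gene and up to 2 per direction with the smallest p. Any other gene was named after its values were seen. A gene of the growth arrest list is not reported here and was left out of its counts. Promoters are RefSeq's on GRCr8, another assembly than that of the counts. RNA of one gene cannot be told from an overlapping gene's where the counting ignored strand.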

Additional observations from a re-analysis of the deposited data

Results flagged for a closer look

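In 20 groups of 4 rats, the 10 genes in each condition, the highest or lowest rat stood apart by Dixon's test at the 95% level in 2, and chance alone would give 1. Both were NC replicate 4. In this rat *Ddit4* was at 7.5 on the scale of log2(CPM + 0.5), or 180.6 CPM, against at most 92.7 CPM in the other NC rats. *Txnip* was at 10.4 on the same scale, or 1343 CPM, against at most 963 CPM. NC replicate 4 was also the highest of the 8 rats in 5 of the 7 glucocorticoid-responsive genes tested, which include *Fkbp5* (215.6 CPM), *Tsc22d3* (857.6 CPM), and *Errfi1* (339.7 CPM, named after its value was seen). The part of these levels in its *Ddit4* and *Txnip* was not tested.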

How the results depend on the processing

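None of the 10 genes passed an adjusted p of 0.05 under any alternative. The number called among all genes was 1 by edgeR and 96 by DESeq2. It was 0 with limma at a pseudocount of 1 or 0.1 on the FPKM, with the muscle covariate, without 12 h p.r. replicate 3 and NC replicate 3 together (chosen after seeing the data), and without each rat in turn (0 to 0). The number of the 10 at an unadjusted p under 0.05 was 0 over all rats, 1 (*Gadd45a*) with the muscle covariate (10.5% of all genes), and 0 to 3 without each rat, with 1 without 12 h p.r. replicate 1 (8.16%), 2 without 12 h p.r. replicate 4 (7.73%), and 3 without NC replicate 2 (9.03%). That of the genes of the 8 lists was 15 (9.51% of all genes), and 9 without NC replicate 4 (6.29%). The difference of *Pik3ip1*, 0.01, turned negative with DESeq2 (−0.000744), RLE factors (−0.000535), no filter beyond 1 count (−0.000797), limma at either pseudocount (−0.0126 and −0.0138), the muscle covariate (−0.0207), and both rats left out (−0.151, with *Txnip* at −0.0505). Without each rat, values ran from −0.139 to 0.0772 for *Pik3ip1*, from −0.0762 to 0.131 for *Foxo1*, from −0.121 to 0.0226 for *Sesn1* (−0.140 without both rats), from −0.0180 to 0.259 for *Txnip*, and from −0.432 to 0.0254 for *Ddit4*. The cause of these turns was not tested. With the replicate number as a block, 0 genes were called, 974 instead of 1326 had an unadjusted p under 0.05, and *Pik3ip1* was at −0.00705. The numbers belong to different rats, and rats of the same number did not deviate together (correlations of −0.19 to 0.12), so they do not pair the samples. Each of the 10 genes had at least 92 reads in every rat, and the part of depth in their spread was not tested.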
